A study of Mus musculus with 27 samples.

Results

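Livers of mice given carbon tetrachloride (CCl4) together with siHAS2-LNP, lipid nanoparticles that carry a small interfering RNA against hyaluronan synthase 2, were compared with livers of mice given CCl4 alone. The comparison rests on 6 of the 27 RNA-seq libraries of the series, 4 of the CCl4 + siHAS2-LNP group and 2 of the CCl4 group, and on 14114 of 55414 genes, those with a mean of at least 10 counts over all libraries. The 4 libraries of the CCl4 + siLuc-LNP group, whose siRNA against luciferase has no target in the mouse, were set beside it. All mice were female, of the Balb/c strain and 8 weeks old at the start, and RNA came from homogenate of the whole liver. Both siRNA groups received intraperitoneal CCl4 and tail vein injections of the particle, 1 mg/kg of siRNA in the first dose and 0.5 mg/kg in the later ones, from 2 days before the first CCl4 and 2 times a week for 2 weeks. For the CCl4 group the labels give only the CCl4 injection, so the siRNA, the particle and the tail vein injection cannot be told apart in the comparison with CCl4 alone. The other libraries of the series came from controls, mice given either particle without CCl4, and mice given 4MU with or without CCl4. 4MU is 4-methylumbelliferone, an inhibitor of hyaluronan synthesis given by gavage. The labels number the libraries as replicates and do not tie each to a mouse, so the p-values below measure the spread between libraries.

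Total counts were 25305105, 18278395, 22109517 and 7044386 in CCl4 + siHAS2-LNP libraries 1 to 4 and 18249896 and 20087676 in CCl4 libraries 1 and 2, and they ranged up to 29425937 in the rest of the series. Counts were turned into CPM, counts per 1000000 of the library total scaled by TMM, a normalisation that assumes most genes do not change. Mitochondrial genes held 1.42% and 3.80% of counts in CCl4 libraries 1 and 2 and 3.09% to 8.10% in the CCl4 + siHAS2-LNP libraries, and small nuclear and ribosomal RNAs held at most 0.548% of counts in these 6 libraries against 15% in CCl4 + siLuc-LNP library 3. Hepatocyte markers summed to 109831 to 179729 CPM in the CCl4 and 147229 to 218203 CPM in the CCl4 + siHAS2-LNP libraries, as a liver sample requires.

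Hyaluronan is a long sugar polymer of the extracellular matrix, and HAS2 is a membrane enzyme that spins it out of the cell from UDP-glucuronic acid and UDP-N-acetylglucosamine. In the injured liver it is made chiefly by hepatic stellate cells, which turn into collagen-producing, contractile myofibroblasts. CCl4 becomes toxic when cytochrome P450 enzymes of the hepatocytes around the central vein convert it to radicals, and the surviving hepatocytes then divide to replace the lost tissue. Kupffer cells, the resident macrophages of the liver sinusoids, clear particles from the blood. In whole-liver RNA, fewer cells of a type and less RNA per cell cannot be told apart.

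The sequences below show the siRNA used in the mice and the site it pairs with in the Has2 transcript. Capitals mark bases 2 to 8 of the guide strand, the seed with which an siRNA can also pair with other transcripts, and the bases that pair with them in the target.
siHAS2 sense strand: uuacggaaauguuugcaa
siHAS2 guide strand: aUUGCAAAcauuuccgua
Has2 target site: tacggaaatgTTTGCAAt
Both strands have 18 bases and a dTdT overhang. All 18 bases of the guide pair with the site, which lies in the coding part of exon 2 of 4 of Has2 at chr15:56545288-56545305 on the minus strand (GRCm39).

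Has2 itself was almost absent from the libraries. It had 0 counts in CCl4 library 1, 2 counts in CCl4 library 2 and 0 counts in each of the 4 CCl4 + siHAS2-LNP libraries, and 0 counts in 25 of all 27 libraries. A count of 0 allows up to 3 counts, or 0.40 CPM in CCl4 + siHAS2-LNP library 4 and 0.117 CPM in library 1, a limit that covers counting error only. At these counts a change of Has2 could not be detected, and the knockdown could not be checked in these RNA samples. Has1 had 1 and 11 counts in the CCl4 libraries and 1, 0, 0 and 8 in the CCl4 + siHAS2-LNP libraries, and Has3 had 0 and 1 against 3, 4, 6 and 1. Both other hyaluronan synthases were too low to be tested.

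Across the transcriptome, CCl4 + siHAS2-LNP differed from CCl4 alone at 2038 genes, 14.4% of those tested, with 1003 higher (7.11%) and 1035 lower (7.33%) by edgeR's quasi-likelihood test at an adjusted p of 0.05. The median log2 fold change was 1.04 among the genes that rose and -1.02 among those that fell. Most of these calls rested on CCl4 library 2. Without it 108 genes passed the threshold, of which 96 were among the 2038, and without CCl4 library 1 there were 1916, of which 1350 were. The direction held at 2037 of the 2038 genes in both fits, while the medians shrank to 0.88 and -0.81 without CCl4 library 2. Leaving out CCl4 + siHAS2-LNP library 3 gave 1242 calls, and leaving out one of the other CCl4 + siHAS2-LNP libraries gave 1520 to 1850. A set of 65 genes (0.461% of those tested, 25 or 0.177% higher and 40 or 0.283% lower) passed the threshold with all libraries and in each of the 6 fits that left one out, and it is called the stable set below.

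**Figure D1:**
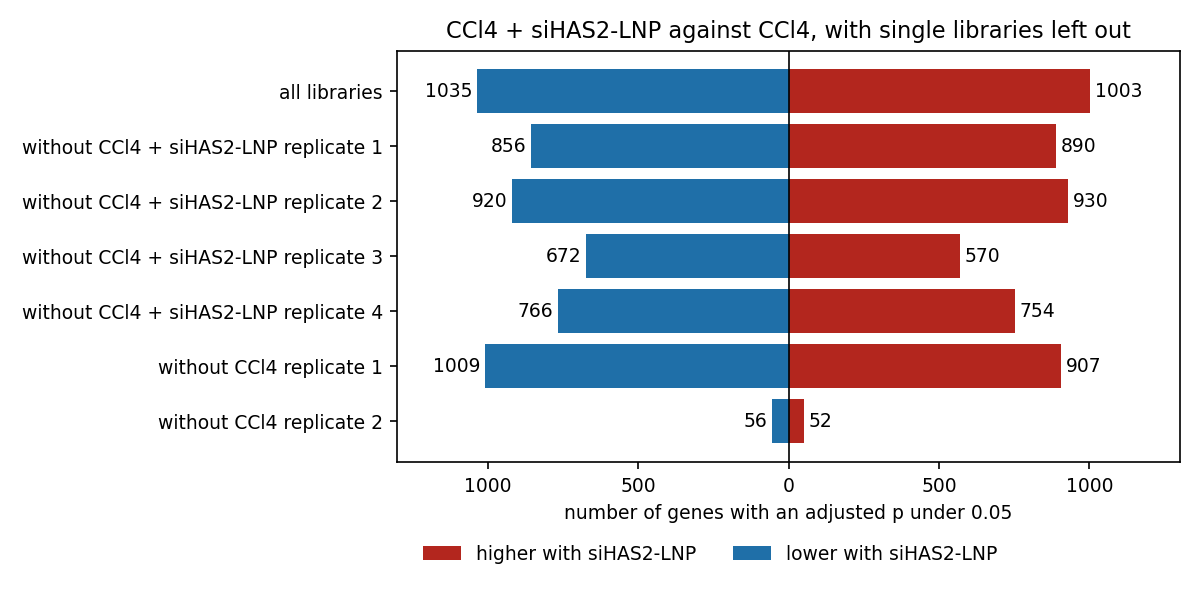
Number of genes higher (right) and lower (left) in CCl4 + siHAS2-LNP than in CCl4 livers at an adjusted p of 0.05, one row per fit. The fit without CCl4 library 2 has 108 calls, of which 96 are among the 2038 found with all libraries.

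The same contrast with the particle control gave far fewer calls. In CCl4 + siLuc-LNP against the same 2 CCl4 libraries, 35 genes (0.248%) passed the threshold, 8 higher (0.0567%) and 27 lower (0.191%), and in CCl4 + siHAS2-LNP against CCl4 + siLuc-LNP, 4 libraries against 4, 154 genes (1.09%) passed, 111 higher (0.786%) and 43 lower (0.305%). At an unadjusted p under 0.05 the genes passing were 29.9% for CCl4 + siHAS2-LNP against CCl4, 14.2% for CCl4 + siLuc-LNP against CCl4 and 16.6% for the direct comparison. The counts of 35 and 154 moved with the tool. DESeq2 gave 277 and 412 and limma-voom with quality weights 175 and 12, whereas a fit of only the compared groups gave 1 and 0 genes, with 857 and 1844 at an unadjusted p under 0.05. Leaving out CCl4 + siLuc-LNP library 4 raised the count against CCl4 to 1062, and leaving out CCl4 + siHAS2-LNP library 3 or CCl4 + siLuc-LNP library 1 lowered the direct count to 4 or 6. The direct comparison is given below as the value against siLuc-LNP.

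Kupffer cell genes held the 2 largest falls. Of 10 Kupffer cell markers, 7 were lower and 0 higher against CCl4 alone, beside 7.33% lower over all tested genes. In 9 of the 10 all CCl4 + siHAS2-LNP libraries lay below both CCl4 libraries, as at 18.8% of all tested genes, and the markers summed to 367 to 431 CPM in the CCl4 and 227 to 275 CPM in the CCl4 + siHAS2-LNP libraries. Marco (ENSMUSG00000026390, chr1:120402267-120432753, minus strand), a scavenger receptor that binds particles and bacteria, stood at 15 and 31.5 CPM in the CCl4 libraries and at 0.0391, 0.146, 0.281 and 0 CPM in the CCl4 + siHAS2-LNP libraries. This is a log2 fold change of -7.33 (adjusted p = 5.13e-06, standard error 0.75), and no CCl4 + siHAS2-LNP library came near the CCl4 ones. With 1, 3, 7 and 0 counts in the CCl4 + siHAS2-LNP libraries, the size of the fall is uncertain. Cd163, the receptor that clears haemoglobin-haptoglobin complexes, fell from 4.19 and 9.04 CPM to 0.587, 0.488, 0.241 and 0.267 CPM, a log2 fold change of -3.98 (adjusted p = 1.72e-05, standard error 0.45). C6, a terminal complement component, fell from 6.57 and 6.33 CPM to 1.14, 1.27, 1.81 and 1.74 CPM. Clec4f, a lectin restricted to Kupffer cells, fell from 114 and 81.5 CPM to 20.4, 33.7, 27.9 and 36.6 CPM. These 4 genes belong to the stable set. Vsig4, Timd4 and Folr2, named after their values were seen, changed by -2.03, -1.28 and -1.93 on the log2 scale (adjusted p = 0.00209, 0.0126 and 0.0319) and lost the threshold without CCl4 library 2 (adjusted p = 0.089, 0.165 and 0.205), Folr2 also without CCl4 library 1 (0.0659) or CCl4 + siHAS2-LNP library 2 or 3 (0.0793 and 0.0654). Adgre1, Cd5l and Slc40a1 had log2 fold changes of -0.98, -0.57 and 0.27 and did not pass.

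Marco and Cd163 were also low in the particle control. In the 4 CCl4 + siLuc-LNP libraries Marco stood at 0.0784, 0.54, 0.3 and 0.0347 CPM and Cd163 at 0.196, 0.617, 0.48 and 0.173 CPM, with log2 fold changes against CCl4 of -6.63 (adjusted p = 6.48e-06) and -4.20 (adjusted p = 6.48e-06). The difference between siHAS2-LNP and siLuc-LNP was -0.70 for Marco (adjusted p = 0.804) and 0.22 for Cd163 (adjusted p = 0.888). Pcolce2, which enhances the trimming of procollagen, stood at 2.87 and 2.07 CPM in CCl4, at 0.0391, 0.391, 0.321 and 0.267 CPM in CCl4 + siHAS2-LNP and at 0.47, 0.231, 0.24 and 0.52 CPM in CCl4 + siLuc-LNP libraries. Ccr3, an eotaxin receptor, fell by 2.89 on the log2 scale with siHAS2-LNP (adjusted p = 0.00112) and by 2.27 with siLuc-LNP (adjusted p = 0.0299), and Pcolce2 and Ccr3 are also in the stable set.

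The 13 libraries without LNP in the whole series were 4 control, 2 CCl4, 3 4MU and 4 CCl4 + 4MU libraries. Of the 14114 tested genes, 5 (0.0354%) were lower in each of the 14 libraries of LNP-treated mice than in each of these 13, and 0 were higher in each. They were Marco, Cd163, Pcolce2, C6 and Kcnj16, a subunit of an inward rectifier potassium channel. Marco ranged from 0 to 0.802 CPM with LNP and from 1.23 to 33.5 CPM without, and Cd163 from 0.173 to 1.70 CPM against 4.19 to 19.9 CPM. Kcnj16 had 19 and 10 counts in the CCl4 libraries and 1, 0, 2 and 0 in the CCl4 + siHAS2-LNP libraries, too few for a fold change to be given. Without the 6 libraries of the comparison, the same 5 genes were lower in all 10 remaining LNP libraries than in all 11 others, and 3 genes, Abcg3, Ccr1 and Tcstv4, were higher. All of these were named after their values were seen.

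The split is also present among the mice without CCl4, 6 libraries with siLuc-LNP or siHAS2-LNP and 7 control or 4MU libraries. Since the genes were picked with the values of all libraries in view, these levels are a description and carry no test. Marco ranged from 0.0572 to 0.802 CPM with LNP and from 1.23 to 9.56 CPM without, Cd163 from 0.439 to 1.70 CPM against 7.73 to 19.9 CPM, Pcolce2 from 0.0572 to 0.485 CPM against 1.79 to 3.63 CPM and C6 from 1.83 to 3.65 CPM against 5.74 to 19.7 CPM. Clec4f overlapped, at 92.6 to 186 CPM with and 77.3 to 208 CPM without LNP, as did Timd4, at 10.3 to 14.6 CPM and 5.74 to 16.3 CPM. Vsig4, at 9.04 to 23.6 CPM with and 13.5 to 45.7 CPM without LNP, and Ccr3, at 0.747 to 1.60 CPM and 0.922 to 3.21 CPM, overlapped in part.

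**Figure D2:**
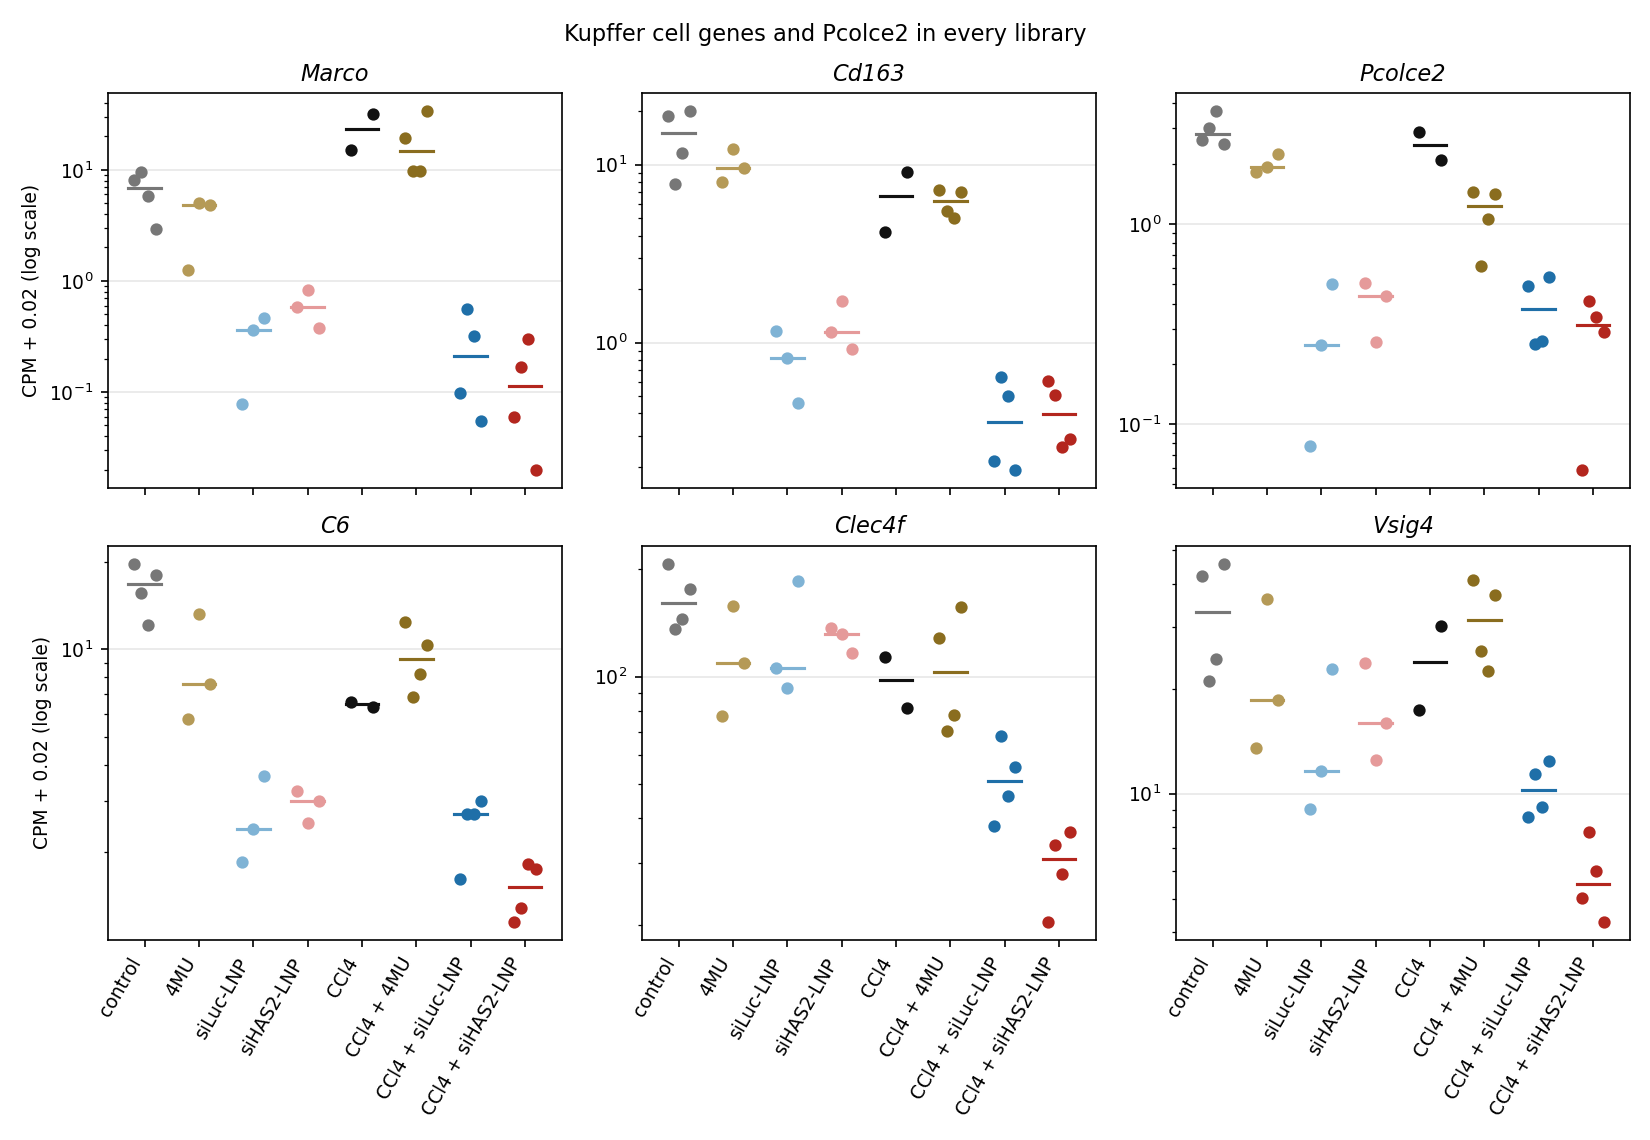
CPM (log axis, with 0.02 added) of Marco, Cd163, Pcolce2, C6, Clec4f and Vsig4 in all 27 libraries by group, one point per library with the median as a line. The 14 libraries with LNP lie below the 13 without for the first 4 genes, and the ranges overlap for Clec4f and Vsig4.

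The smallest p among the genes that rose was that of AI480526, a gene with a provisional name, named after its values were seen. It stood at 0.681 and 0.791 CPM in the CCl4 libraries and at 4.50, 6.45, 7.06 and 6.94 CPM in the CCl4 + siHAS2-LNP libraries (log2 fold change 3.06, adjusted p = 5.13e-06), was higher against siLuc-LNP by 1.66 (adjusted p = 0.000904) and is in the stable set, and it shares exon sequence with an overlapping gene, so its counts are uncertain. With predicted and provisionally named genes left out, the next were Tmem25, Atat1, Zkscan3, Shfl, Akap8l, Ganc, Ahr and Dhdh, all 8 in the stable set. Tmem25, a transmembrane protein gene, stood at 11.9 and 11.7 CPM in the CCl4 libraries and at 36.2, 31.7, 37.1 and 37.0 CPM in the CCl4 + siHAS2-LNP libraries, a log2 fold change of 1.59 (adjusted p = 0.000393, standard error 0.22). Shfl, an interferon-induced inhibitor of ribosomal frameshifting, stood at 24.5 and 20.2 CPM against 66.7, 81.3, 142 and 103 CPM. Atat1, the α-tubulin acetyltransferase, rose by 1.91 and Zkscan3, a zinc finger repressor of autophagy genes, by 1.16. Each of these 4 genes was also higher against siLuc-LNP, Tmem25 by 0.77 (adjusted p = 0.0325), Shfl by 1.33 (adjusted p = 0.0186), Atat1 by 0.88 (adjusted p = 0.0385) and Zkscan3 by 0.62 (adjusted p = 0.0318). Ahr, the aryl hydrocarbon receptor, rose by 1.32 with siHAS2-LNP and by 1.13 with siLuc-LNP (adjusted p = 0.000535 and 0.0131), and the siRNAs differed by 0.19 (adjusted p = 0.597).

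Among the genes that fell with the smallest p, Rpa2, a subunit of the protein that coats single-stranded DNA, stood at 39.1 and 48.8 CPM in CCl4 and at 13.6, 8.89, 10.5 and 11.4 CPM in CCl4 + siHAS2-LNP libraries (log2 fold change -1.99, standard error 0.23, adjusted p = 2.23e-05). Hars1, the histidyl-tRNA synthetase, fell from 74.2 and 77.3 CPM to 39.9, 45.4, 35.0 and 42.9 CPM. Pgm3, an enzyme of the path to UDP-N-acetylglucosamine, a building block of hyaluronan, fell from 51.9 and 64.6 CPM to 21.1, 25.0, 18.4 and 16.7 CPM. In all 3 genes the 2 groups lay far apart, and the CCl4 + siHAS2-LNP libraries were nearer to the controls, where Rpa2 ranged from 8.24 to 10.2 CPM, Hars1 from 36.8 to 39.9 CPM and Pgm3 from 8.16 to 10.2 CPM. The 3 genes also fell with siLuc-LNP, by 1.58, 0.76 and 1.02 on the log2 scale (adjusted p = 0.00147, 0.00607 and 0.0333). Tinf2, a telomere-binding protein of the shelterin complex, did so too, by 1.25 with siHAS2-LNP and by 0.96 with siLuc-LNP (adjusted p = 0.00051 and 0.0277). Hid1, which acts in secretory granule formation, fell by 2.18 against CCl4 (adjusted p = 0.000458) and by 1.19 against siLuc-LNP (adjusted p = 0.0371). Dnajc9, a histone chaperone, fell by 1.82 (adjusted p = 0.00051) but had an adjusted p of 0.051 without CCl4 library 2, unlike the other genes of this paragraph, which are in the stable set.

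The genes named for the size of their rise, predicted and provisionally named genes left out, ranged from 0.111 CPM for Dlk1 to 28.9 CPM for Mug2 on average in CCl4. Dlk1 and the long noncoding RNA Meg3, which come from the same imprinted locus, rose by 3.64 and 2.57 on the log2 scale (adjusted p = 0.0142 and 0.00726). Dlk1 stood at 0.146 and 0.0754 CPM in the CCl4 libraries and at 0.626, 1.71, 1.00 and 2.67 CPM in the CCl4 + siHAS2-LNP libraries, and it ranged from 0.451 to 2.22 CPM in the siLuc-LNP libraries. Both CCl4 libraries were thus near or below the level of 3 counts (0.146 and 0.113 CPM), so the size of the rise is uncertain. The 2 siRNA groups overlapped. Iqcn, Clic3, Kifc2, Plin4, Mug2, Hamp2, Mapk15 and Ptgds rose by 2.55 to 3.51, and Plin4 coats lipid droplets, Hamp2 is related to hepcidin and Ptgds makes prostaglandin D2. These 10 genes lost the threshold without CCl4 library 2 (adjusted p between 0.0975 and 0.39), Plin4 and Mapk15 also without CCl4 library 1 (0.0813 and 0.087), Hamp2 without CCl4 + siHAS2-LNP library 1 or 4 (0.118 and 0.0537) and Mapk15 without library 3 or 4 (0.113 and 0.0627). Tmem278 and Apoc2, an activator of lipoprotein lipase, rose by 3.01 and 2.65 and are in the stable set, and both were higher against siLuc-LNP (1.48 and 1.49, adjusted p = 0.0319 and 0.0349). In the CCl4 libraries Tmem278 stood at 0.292 and 0.188 CPM and Iqcn at 0.341 and 0.0754 CPM, the last below the level of 3 counts. The sizes of the rises of Tmem278 and Iqcn are thus also uncertain. Apoc2, Clic3, Plin4 and Hamp2 share exon sequence with overlapping genes and Mug2 has close copies, so their counts are uncertain.

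Genes of the extracellular matrix and of the cells that make it fell in larger shares than the 7.33% of all tested genes. Of 25 tested collagen chains, 10 were lower and 2 higher, with a median log2 fold change of -1.05 beside 0.016 over all genes. Of 24 genes of collagen processing 10 were lower and 0 higher, of 47 matrix glycoproteins and proteoglycans 10 and 0, of 33 matrix proteases and inhibitors 7 and 0, of 26 genes of stellate cells and myofibroblasts 9 and 0, and of 39 genes of TGF-β and PDGF signalling 9 and 0. The medians were -0.75, -0.54, -0.70, -0.67 and -0.39. Without CCl4 library 2, 1 gene of these 6 lists, Pcolce2, passed, with 6, 5, 6, 7, 9 and 9 at an unadjusted p under 0.05 by edgeR, and 24 of 25, 24 of 24, 41 of 47, 29 of 33, 23 of 26 and 36 of 39 kept their sign. With all libraries DESeq2 called 10 collagen chains lower and limma-voom 4.

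Col1a1 (chr11:94827050-94843868), the α1 chain of type I collagen, stood at 154 and 273 CPM in the CCl4 libraries and at 69.6, 77.0, 49.3 and 48.1 CPM in the CCl4 + siHAS2-LNP libraries, a log2 fold change of -1.81 (adjusted p = 0.0229, standard error 0.52). Col1a2 stood at 155 and 279 CPM against 59.8, 98.2, 46.7 and 56.8 CPM (-1.73, adjusted p = 0.0158). The CCl4 + siHAS2-LNP libraries lay below both CCl4 libraries and above the controls, where Col1a1 ranged from 2.60 to 6.32 CPM. The call of Col1a1 was lost without CCl4 library 2 (-1.37, adjusted p = 0.291) and without CCl4 + siHAS2-LNP library 3 or 4 (adjusted p = 0.0614 and 0.0563), and that of Col1a2 without CCl4 library 2 (adjusted p = 0.271) or CCl4 + siHAS2-LNP library 3 (adjusted p = 0.0504). Col3a1, at 196 and 297 CPM against 83.1, 159, 87.4 and 103 CPM, had a log2 fold change of -1.19 and did not pass (adjusted p = 0.0804). Col6a2 and Col16a1 fell by 1.41 and 1.38, whereas Col5a3 and Col20a1 rose by 1.54 and 1.86.

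Acta2, the smooth muscle actin of myofibroblasts, stood at 8.71 and 41.7 CPM in CCl4 and at 4.38, 1.71, 2.41 and 1.07 CPM in CCl4 + siHAS2-LNP libraries. It fell by 3.32 (standard error 0.86, adjusted p = 0.0126), and had a log2 fold change of -1.82 with an adjusted p of 0.396 without CCl4 library 2, whose level was the highest. Nes, Vim, Tpm1 and Des, cytoskeletal genes of stellate cells and myofibroblasts, fell by 2.28, 1.14, 0.67 and 1.35 (adjusted p between 0.000698 and 0.0102). Pdgfra and Tgfb1, the gene of the main fibrogenic cytokine, fell by 0.97 and 0.73, and Pdgfrb and the integrin chain Itgb3 had log2 fold changes of -0.63 and -0.90 and did not pass (adjusted p = 0.0753 and 0.0731). Smooth muscle markers moved with these genes, summing to 29.3 to 78.8 CPM in CCl4 and 13.9 to 19.5 CPM in CCl4 + siHAS2-LNP libraries, and mesothelial markers to 985 to 1081 CPM against 628 to 792 CPM, and their part in the falls was not tested.

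Among the 7 of 33 matrix proteases and inhibitors called lower, Plau and Plat, the plasminogen activators, fell by 2.27 and 2.31. Timp1 and Timp2, inhibitors of matrix metalloproteinases, fell by 1.35 and 1.14. Among the 10 of 47 glycoproteins and proteoglycans called lower, Tnc, tenascin C, stood at 2.58 and 8.70 CPM against 0.509, 1.12, 0.763 and 0 CPM and fell by 3.08 (adjusted p = 0.00276). Thbs1, Eln and Fbn1 fell by 2.58, 1.61 and 1.51, Ccn2, a target of TGF-β, by 1.88, and Serpinh1, P3h1 and Plod3, which fold and modify collagen, by 1.29, 0.79 and 0.57. Fstl1 and Ltbp3 fell by 1.16 and 1.05. All genes of this and the previous 2 paragraphs that passed lost the threshold without CCl4 library 2, with adjusted p between 0.0518 and 0.522, and Fstl1 also did without CCl4 + siHAS2-LNP library 1, 3 or 4 (adjusted p = 0.0863, 0.0632 and 0.0811).

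Set beside siLuc-LNP, few matrix genes passed the adjusted threshold by edgeR. Their medians in CCl4 + siLuc-LNP against CCl4 were -0.38 for collagen chains, -0.27 for collagen processing, -0.05 for matrix glycoproteins, -0.05 for matrix proteases and -0.13 for stellate cell genes. In CCl4 + siHAS2-LNP against CCl4 + siLuc-LNP they were -0.67, -0.55, -0.51, -0.59 and -0.63, with 1 collagen chain higher and 1, 3, 1 and 3 genes of the other lists lower. At an unadjusted p under 0.05 there were 15 of 25, 14 of 24, 22 of 47, 13 of 33 and 15 of 26 genes, beside 16.6% of all tested genes. DESeq2 called 5, 5, 10, 5 and 4 genes of the lists and limma-voom 0, 1, 0, 0 and 0. Col1a1 ranged from 75.0 to 277 CPM in the siLuc-LNP libraries and was -1.32 lower with siHAS2-LNP without passing (adjusted p = 0.135). Of the genes named in these paragraphs, those that passed against siLuc-LNP were Tnc (-2.27, adjusted p = 0.0433), Vim (-0.86, adjusted p = 0.0433) and Col5a3 (1.18, adjusted p = 0.04).

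**Figure D3:**
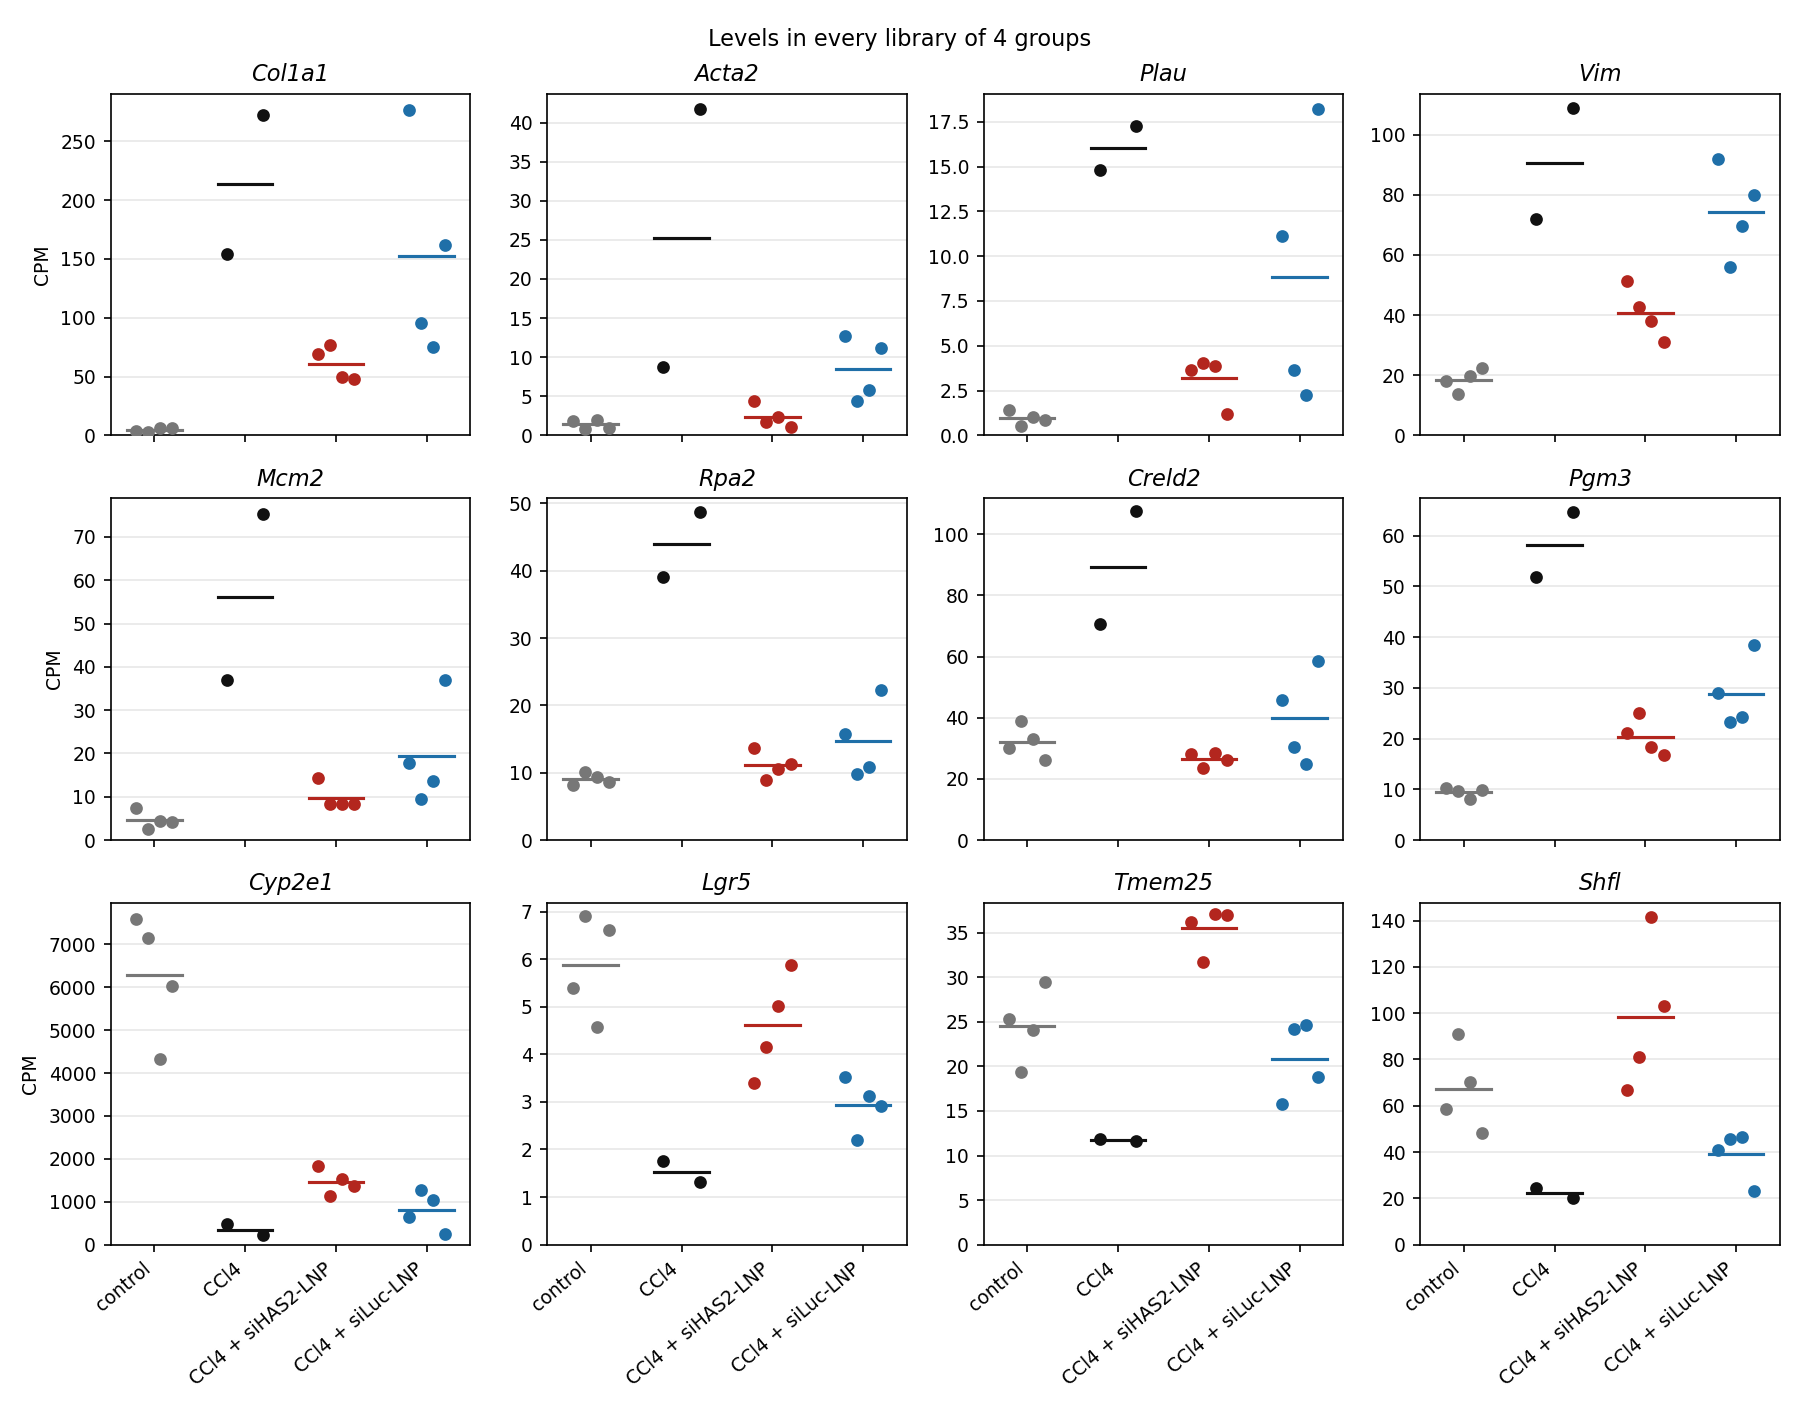
CPM (linear axis from 0) of 12 genes in the control, CCl4, CCl4 + siHAS2-LNP and CCl4 + siLuc-LNP libraries, one point per library with the group mean as a line. For Col1a1 and Acta2 the 4 CCl4 + siHAS2-LNP libraries lie below both CCl4 libraries, and Acta2 differs between the CCl4 libraries, at 8.71 and 41.7 CPM.

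Genes that make, bind or degrade hyaluronan had mixed directions, 11 positive and 12 negative. Of 23 tested, 3 were lower and 1 higher (17.4% called, beside 14.4% of all tested genes), with a median log2 fold change of -0.10. Vcan, the hyaluronan-binding proteoglycan versican, fell by 2.49 (adjusted p = 0.0196), Cemip2, a cell surface hyaluronidase, by 1.30 (adjusted p = 0.00558) and Hmmr, a hyaluronan-binding protein that also acts on the mitotic spindle, by 1.27 (adjusted p = 0.0408). Hyal1, a lysosomal hyaluronidase that shares exons with Hyal3 and Naa80 in the annotation, rose by 0.64 (adjusted p = 0.0446). The hyaluronan receptor Cd44 stood at 22.2 and 31.8 CPM in CCl4 and at 13.6, 18.5, 14.7 and 14.6 CPM in CCl4 + siHAS2-LNP libraries, below in every library, and missed the threshold (log2 fold change -0.82, adjusted p = 0.0501). Hyal2 had a log2 fold change of 0.32 (adjusted p = 0.28). All 4 calls were lost without CCl4 library 2, with adjusted p between 0.149 and 0.604. Hmmr and Hyal1 passed in 1 of the 6 fits that left a library out, and Vcan was also lost without CCl4 + siHAS2-LNP library 3 (adjusted p = 0.0603).

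DNA replication genes fell in the largest share of the lists examined. Of 53 tested, 45 were lower and 0 higher, with a median log2 fold change of -1.71, beside 7.33% lower over all tested genes. Mcm2, a subunit of the replicative helicase, stood at 36.9 and 75.3 CPM in CCl4 and at 14.4, 8.25, 8.27 and 8.28 CPM in CCl4 + siHAS2-LNP libraries (-2.51, standard error 0.38, adjusted p = 0.00051). Pcna, the sliding clamp of the DNA polymerases, stood at 91.4 and 193 CPM against 44.8, 35.7, 43.4 and 37.5 CPM (-1.82, adjusted p = 0.000669). In both genes CCl4 library 2 was the higher of the pair, and both CCl4 libraries lay above all CCl4 + siHAS2-LNP libraries. Cdc6, Hells, Uhrf1, Rrm2 and Chaf1a, which license origins, remodel or copy chromatin marks, make deoxynucleotides and assemble nucleosomes, had log2 fold changes of -3.87, -3.05, -2.96, -2.86 and -2.77. Sprr1a, a squamous differentiation gene induced in injured epithelium, fell by 3.63 from 4.19 and 12.9 CPM to 0.822, 0.879, 0.522 and 0.401 CPM.

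Of 71 mitosis genes 44 were lower and 0 higher (median -1.39), beside 7.33% lower over all tested genes. Among those lower were Top2a, Ncapg2, Spc25, Aurka and Incenp at -2.20, -2.64, -1.64, -1.59 and -1.52. The proliferation marker Mki67 stood at 102 and 209 CPM in CCl4 and at 63.5, 67.8, 74.6 and 66.6 CPM in CCl4 + siHAS2-LNP libraries, with a log2 fold change of -1.19 that missed the threshold (adjusted p = 0.0609). Controls ranged from 2.36 to 5.81 CPM, so Mki67 stayed above them in all CCl4 + siHAS2-LNP libraries. Without CCl4 library 2, 3 replication genes and 0 mitosis genes passed by edgeR, with 38 and 18 at an unadjusted p under 0.05, and 52 of 53 and 71 of 71 kept their sign. Rpa2, Mcm2 and Chaf1a are in the stable set, and the other genes named in these 2 paragraphs that passed had adjusted p between 0.0571 and 0.279 in that fit. DESeq2 called 46 replication and 49 mitosis genes lower and limma-voom 45 and 47.

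In CCl4 + siLuc-LNP against CCl4 the median was -1.07 over the replication genes, with 3 lower, and -0.71 over the mitosis genes, with 0 called. At an unadjusted p under 0.05 there were 46 replication and 22 mitosis genes, beside 14.2% of all tested genes. For replication, DESeq2 called 20 and limma-voom 32 genes. The siLuc-LNP libraries were uneven, Mcm2 standing at 17.7, 9.53, 13.7 and 36.8 CPM, with library 4 as high as CCl4 library 1. Against siLuc-LNP the medians with siHAS2-LNP were -0.48 and -0.65, and 0 genes of the 2 lists passed by edgeR. At an unadjusted p under 0.05 there were 19 of 53 and 26 of 71 genes, beside 16.6% of all tested genes. DESeq2 called 1 and 0, and 48 of 53 and 70 of 71 genes had negative log2 fold changes.

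Genes of mismatch repair and immunoglobulin hypermutation, which B cells and dividing cells share, fell in 12 of 21 with 0 higher (median -0.82). The study drew members of this list from these same libraries, so their direction is not independent evidence. Msh6, which takes part in recognising mismatches, stood at 27 and 38.5 CPM in CCl4 and at 8.61 to 13.7 CPM in CCl4 + siHAS2-LNP libraries. Exo1, Ung and Polq had log2 fold changes of -2.36, -1.48 and -1.82, and Lgals1 fell by 0.82 against CCl4 and by 1.07 against siLuc-LNP (adjusted p = 0.0367 and 0.0318). Msh6 alone of these kept the threshold without CCl4 library 2, where the others had adjusted p of 0.116 to 0.597. Polq also lost it without CCl4 + siHAS2-LNP library 3 (adjusted p = 0.0707), and Lgals1 without library 3 or 4 (0.0854 and 0.0855). Markers of B and plasma cells gave 0 calls of 13 by edgeR, with 1 at an unadjusted p under 0.05 and 0 by DESeq2, and summed to 292 to 402 CPM in CCl4 and 280 to 525 CPM in CCl4 + siHAS2-LNP libraries.

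Chaperones of the endoplasmic reticulum fell in 17 of 37 genes, with 0 higher (median -0.53). Hspa5, the main chaperone (BiP), stood at 1520 and 1506 CPM in CCl4 and at 607, 826, 781 and 824 CPM in CCl4 + siHAS2-LNP libraries (log2 fold change -0.99, adjusted p = 0.0134) beside 650 to 764 CPM in the controls. Creld2, a secreted stress-induced gene, fell from 70.8 and 108 CPM to 28.1, 23.5, 28.5 and 26 CPM (-1.75, adjusted p = 0.00051) and is in the stable set. Dnajc10, Sdf2l1 and Dnajb11 fell by 1.31, 1.36 and 1.11 and had adjusted p between 0.0571 and 0.139 without CCl4 library 2, where Hspa5 had 0.11. Against siLuc-LNP these genes differed by -0.34 to -0.71 and did not pass. Of 43 ribosome biogenesis genes 11 were lower and 0 higher (median -0.34), and of 50 splicing factors 5 and 1 (-0.17). Over all tested genes 7.33% were lower and 7.11% higher. Without CCl4 library 2 the 2 medians were -0.27 and -0.065, and 32 of 43 and 44 of 50 genes kept their sign. In CCl4 + siLuc-LNP against CCl4 the medians were -0.33 and -0.20, and between the siRNAs -0.0096 and 0.0096.

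Some genes of hepatocyte metabolism rose, most members of each list not passing. Beside 7.11% higher over all tested genes, of 56 tested P450 and flavin monooxygenase genes 13 were higher and 0 lower (median 0.45), of 35 bile acid genes 8 and 0 (0.45), of 51 genes of amino acid catabolism and the urea cycle 12 and 1 (0.60), and of 49 conjugating enzymes 5 and 0 (0.47). Without CCl4 + siHAS2-LNP library 4 the numbers higher were 9, 4, 2 and 3, and without CCl4 library 1 they were 11, 10, 25 and 15. In CCl4 + siLuc-LNP against CCl4 the medians of the 4 lists were 0.30, 0.14, 0.45 and 0.37, and between the siRNAs 0.20, 0.20, 0.13 and 0.13. No gene of these lists passed in either comparison by edgeR. At an unadjusted p under 0.05 there were 10, 9, 15 and 11 genes with siLuc-LNP and 11, 6, 2 and 3 between the siRNAs. Cyp2e1, the P450 that activates CCl4, stood at 482 and 214 CPM in CCl4 and at 1834, 1123, 1537 and 1359 CPM in CCl4 + siHAS2-LNP libraries (log2 fold change 2.07, standard error 0.44, adjusted p = 0.0042). All of these remained below the controls, at 4331 to 7600 CPM. Cyp7a1, the rate-limiting enzyme of bile acid synthesis, stood at 35.6 and 11.3 CPM against 71.6, 99.0, 143 and 221 CPM (2.51, adjusted p = 0.00999). Cyp3a25, Cyp2c38, Cyp2a22 and Cyp1a2 rose by 1.46, 1.57, 1.41 and 1.46, while Cyp3a11 had a log2 fold change of 0.50 (adjusted p = 0.296). P450 genes of these families have close copies and lost reads that map to several places, so their levels are uncertain.

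Ugt1a6a, a glucuronosyltransferase that shares exons with other Ugt1a genes, rose by 2.47 and is in the stable set. The bile salt exporter Abcb11, the nuclear receptors Nr1h4 (FXR) and Nr1i3 (CAR), the urea cycle enzyme Otc and Prodh, Hpd and Uroc1 of proline, tyrosine and histidine breakdown rose by 0.95, 0.78, 1.5, 0.93, 2.02, 1.08 and 0.77. Nr1i3 shares exon sequence with an overlapping gene, so its counts are uncertain. Mlxipl, the carbohydrate-sensing activator of lipogenesis, rose by 1.70 and Gstk1 by 1.13. Apart from Ugt1a6a, the genes of this and the previous paragraph that rose had adjusted p between 0.145 and 0.444 without CCl4 library 2, and the 4 lists kept 0, 0, 0 and 1 calls there, with 9, 6, 1 and 3 at an unadjusted p under 0.05. Cyp1a2, Prodh, Hpd and Uroc1 also lost the threshold without one or both of CCl4 + siHAS2-LNP libraries 1 and 4 (adjusted p between 0.0526 and 0.0655), and Cyp2c38 without CCl4 library 1 (0.0517). Alb, at 100405 and 58085 CPM in CCl4 and 86445 to 130442 CPM in CCl4 + siHAS2-LNP libraries, did not pass (adjusted p = 0.309), and the 16 hepatocyte markers gave 0 calls by edgeR, with 4 at an unadjusted p under 0.05 and 2 by DESeq2.

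By zone, 8 of 20 pericentral genes were higher and 1 lower (median 0.74), beside 7.11% higher over all tested genes, and 1 of 18 periportal genes was higher. Without CCl4 library 2, 1 pericentral gene passed and the median was 0.37, and without CCl4 library 1 5 periportal genes were higher. Lgr5 and Tbx3, Wnt-dependent genes of the cells around the central vein, rose by 1.57 and 1.65 (adjusted p = 0.00111 and 0.00175). Lgr5 stood at 1.75 and 1.32 CPM in CCl4, at 3.41, 4.15, 5.02 and 5.88 CPM in CCl4 + siHAS2-LNP and at 4.57 to 6.91 CPM in control libraries. Glul, glutamine synthetase of the innermost pericentral cells, stood at 52.3 and 56.3 CPM in CCl4 and at 37.5, 48.6, 43.0 and 50.5 CPM in CCl4 + siHAS2-LNP libraries, against 452 to 832 CPM in the controls, and did not pass (-0.28, adjusted p = 0.458). The pericentral genes were thus unequal, Cyp2e1 and Lgr5 rising and Glul staying far below the controls in both groups. Pericentral medians were 0.77 in CCl4 + siLuc-LNP against CCl4 and 0.11 between the siRNAs. Lgr5 and Tbx3 had adjusted p of 0.0576 and 0.0518 without CCl4 library 2.

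Vessel and guidance genes were mixed. Of 32 genes of angiogenesis and endothelium 6 were lower and 1 higher (median -0.64), of 32 hypoxia genes 4 and 1, and of 26 semaphorins, plexins and neuropilins 3 and 1, beside 7.33% lower over all tested genes. Without CCl4 library 1 the numbers lower were 2, 3 and 5, without CCl4 + siHAS2-LNP library 4 they were 2, 2 and 4, and without CCl4 library 2 no gene of the 3 lists passed by edgeR. Vegfa, the main vascular growth factor, rose from 42.4 and 41.3 CPM to 81.6, 71.1, 104 and 84.4 CPM (log2 fold change 1.03, adjusted p = 0.00251), whereas its receptor Flt1 fell by 0.94 and Cav1 of the caveolae by 1.70. Among the hypoxia genes, the glycolytic Ldha and Pfkp fell by 0.55 and 1.03. Sema4g rose by 1.56, and Sema6b, Sema3f and the receptor Nrp2 fell by 1.29, 0.97 and 1.17. Flt1 lost the threshold in each fit that left out a library (adjusted p between 0.0507 and 0.192), and Cav1 in 4 of 6. Ldha, Pfkp and Nrp2 lost it without CCl4 library 1 (0.0778, 0.119 and 0.0661), Ldha without CCl4 + siHAS2-LNP library 4 (0.0645), Sema3f without library 3 (0.0504), and without CCl4 library 2 all 9 genes did (between 0.0704 and 0.77). Sinusoidal endothelial markers gave 0 calls of 12 by edgeR, with 2 at an unadjusted p under 0.05 and 1 by DESeq2. Their median log2 fold change was -0.64, and -0.59 without CCl4 library 2, and 11 of 12 were negative. In 9 all CCl4 + siHAS2-LNP libraries lay below both CCl4 libraries, as at 18.8% of all tested genes. Against siLuc-LNP the median was -0.64 and 0 passed, with 5 at an unadjusted p under 0.05 beside 16.6% of all tested genes.

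Among immune genes, 5 of 35 chemokines and receptors were lower and 1 higher, beside 7.33% lower and 7.11% higher over all tested genes. Ccl2, the monocyte attractant, stood at 2.38 and 6.89 CPM in CCl4 and at 0.900, 0.195, 0.803 and 0.534 CPM in CCl4 + siHAS2-LNP libraries (-2.88, adjusted p = 0.00367). The macrophage gene Cd68, the lipopolysaccharide co-receptor Cd14, the complement gene C1qa and Pf4, a platelet chemokine also made by macrophages, fell by 1.5, 1.48, 0.92 and 1.44, and Il1rn, the interleukin-1 receptor antagonist, by 1.40. Cxcl12, a homing chemokine, rose by 0.70. All 7 lost the threshold without CCl4 library 2 (adjusted p between 0.178 and 0.446), Il1rn also without CCl4 library 1 (0.123) or CCl4 + siHAS2-LNP library 1, 3 or 4 (0.0566 to 0.0906) and Pf4 without library 3 or 4 (0.059 and 0.0534). Monocyte and macrophage markers summed to 623 to 628 CPM in CCl4 and 356 to 576 CPM in CCl4 + siHAS2-LNP libraries, with 1 of 14 called lower. Of 49 interferon-stimulated genes 1, Stat2, was higher, and Oas1b was higher against siLuc-LNP by 0.94 (adjusted p = 0.0445) and had 0.80 against CCl4 (adjusted p = 0.06). Complement and coagulation genes gave 8 higher and 2 lower of 48, Masp2 and C8g rising by 0.83 and 1.31, and Hrg, a histidine-rich plasma protein, had a log2 fold change of 0.89 (adjusted p = 0.0557). Stat2, Masp2 and C8g had adjusted p of 0.313, 0.222 and 0.331 without CCl4 library 2.

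Of 40 autophagy and mitophagy genes, 6 were higher and 1 lower, beside 7.11% higher and 7.33% lower over all tested genes. Gabarapl1 of the autophagosome membrane rose by 1.11 and the receptor Calcoco1 by 1.13, while the mitophagy receptor Fundc1 fell by 0.76. Without CCl4 library 2 their adjusted p was 0.113 to 0.379, and Fundc1 had 0.0801 without CCl4 library 1. Of 34 lipogenesis and lipid droplet genes 2 were higher and 1 lower, and of 37 acute-phase genes 1 and 2. Cholesterol synthesis gave 0 calls of 25 by edgeR, with 2 at an unadjusted p under 0.05 and 0 by DESeq2 or limma-voom. Its median was -0.26 against CCl4 and -0.79 against siLuc-LNP, where 4 genes had an unadjusted p under 0.05.

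**Figure D4:**
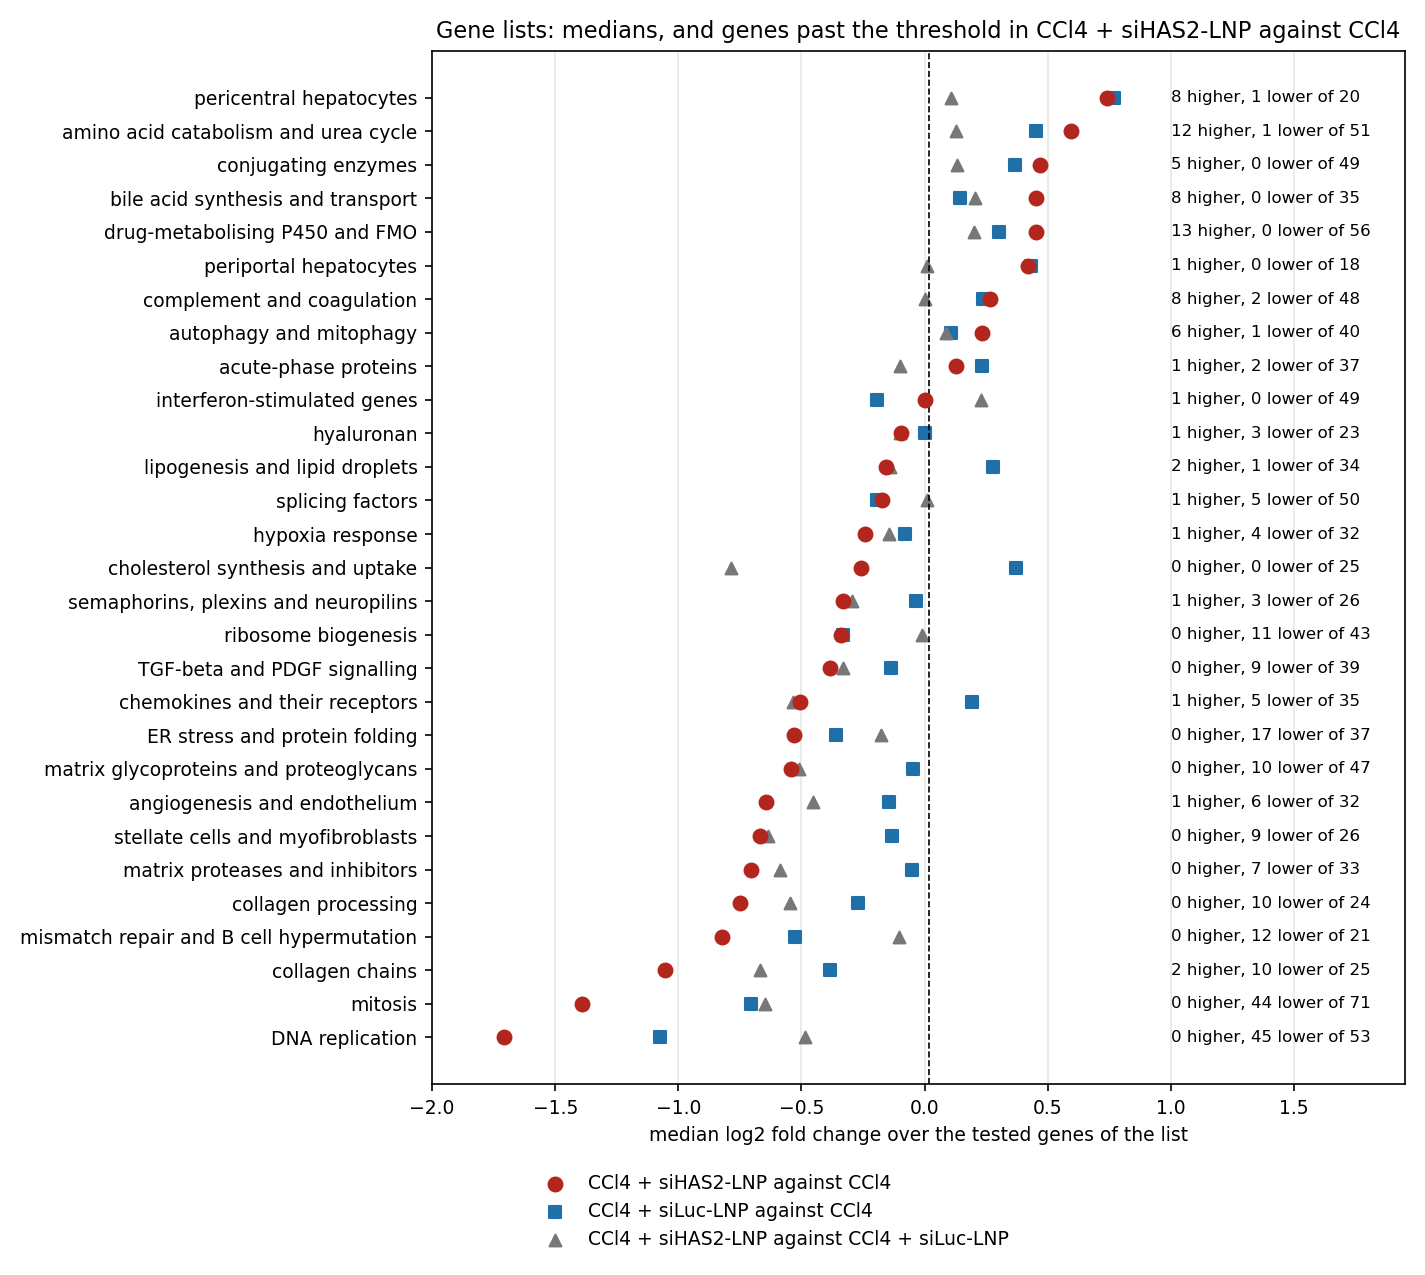
Median log2 fold change of 29 gene lists, cell type marker lists not drawn, in the 3 comparisons, with the numbers of members called higher and lower in CCl4 + siHAS2-LNP against CCl4, and a dashed line at the median of all tested genes. DNA replication (median -1.71) and mitosis (-1.39) lie lowest and pericentral genes (0.74) highest of those drawn in CCl4 + siHAS2-LNP against CCl4.

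Among the remaining marker lists, mesothelial genes were lower in 4 of 10 and smooth muscle genes in 3 of 7, with medians of -1.76 and -1.51. Over all tested genes 7.33% were lower. All 10 and all 7 had negative log2 fold changes, and without CCl4 library 2 no gene of both lists passed by edgeR, with 1 of each at an unadjusted p under 0.05 and medians of -1.11 and -0.96. Bile duct genes were lower in 2 of 10 with 1 higher (median -0.30), Upk1b of the mesothelium and Krt7 of the bile ducts falling by 2.37 and 2.19 (adjusted p = 0.0196 and 0.00845, and 0.369 and 0.209 without CCl4 library 2, with 0.0545 for Upk1b without CCl4 + siHAS2-LNP library 1). Platelet and adipocyte lists each had 1 of 4 lower. Neutrophil, T or NK cell, dendritic and erythroid lists, with 10, 11, 6 and 7 genes tested, had 0 calls by edgeR and by DESeq2. At an unadjusted p under 0.05, 1 T or NK cell gene was higher and 2 lower, and none of the other lists. Only 4 of 13 gut, 1 of 13 pancreas and 1 of 10 skeletal muscle markers were tested, too few to judge these lists. They had 0 calls, with 1 gut gene higher and 2 lower at an unadjusted p under 0.05.

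Transcripts that could pair with the guide seed were described last. A match to its bases 2 to 8 was present in the longest 3′ UTR of 2246 of 12671 tested genes with an annotated 3′ UTR, or 17.7%, written TTTGCAA on the sense strand. Their median log2 fold change against CCl4 was -0.071, beside -0.0073 for genes without a match, and 8.82% against 7.84% were called lower. For siLuc-LNP, whose siRNA sequence is not given in the sources used here, the medians were -0.038 and 0.0052, and between the siRNAs -0.014 and -0.0092. The UTRs with a match were longer, with a median of 3208.5 bases against 1613, so the pairing and the length cannot be told apart in these medians.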

How the data were processed

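The authors isolated polyadenylated RNA, made directional libraries, sequenced them in paired-end mode on a NextSeq500, trimmed reads with Trimmomatic 0.39, aligned them to GRCm39 (Ensembl 105) with HISAT2 and counted read pairs per gene with featureCounts leaving out multimapping reads. The HISAT2 version and the strand setting of the counting are not given in the sources used here. The deposited values are these raw counts, whole numbers for 55414 genes.

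Symbols and positions came from GENCODE vM39 (GRCm39), which held 54749 of the identifiers. In it, 22 of the 150 genes named in the report share at least 20% of their exon bases with another gene, so their counts are uncertain. Among them are Aurka, Ccn2, Chaf1a, Dnajc9, Fbn1, Folr2, Gabarapl1, Hspa5, Lgals1, Masp2, Nr1i3, Pcna, Rrm2, Spc25 and Tinf2. A mean count of 10 or more was required, all 27 libraries entered 1 fit of 8 group means with TMM normalisation, and contrasts were tested with edgeR 4.0.16 (R 4.3.3) by its quasi-likelihood test, p-values being adjusted over 14114 genes by Benjamini-Hochberg. Alternatives used DESeq2 1.42.0 and limma 3.58.1, and figures matplotlib 3.10.9. On simulated counts, edgeR recovered 58 and 93 of 100 genes changed by 1 and 2 on the log2 scale for CCl4 + siHAS2-LNP against CCl4, with 8 false calls, and 82 and 100 of 100 against CCl4 + siLuc-LNP, with 6. The changed genes were drawn from those with mean counts well above the filter, and counts were drawn independently for each gene and library. Recovery at low counts and a shift shared by the genes of a library, such as CCl4 library 2, were therefore not covered.

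Named genes were the 12 with the largest change and the 8 with the smallest p in each direction among genes past the threshold with a mean of at least 1 CPM and libraries of the 2 groups that did not overlap, predicted genes left out, the 4 with the smallest p in each list, and genes the study names, some of which are not reported here. The members and lists were chosen with earlier results of these data known. The siRNA sequences are those the study gives for the one used in vivo, and the target site was read from GENCODE transcripts.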

Additional observations from a re-analysis of the deposited data

Results flagged for a closer look

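Among the 150 genes named, the total count and the mitochondrial share, 15 values of the 4 CCl4 + siHAS2-LNP libraries stood apart from the other 3 by Dixon's gap ratio at its 5% critical value, which chance alone gives for about 5% of groups. Library 1 was highest for Mcm2 at 14.4 CPM (median of the others 8.27), Uhrf1 at 9.55 CPM (5.50), Hyal2 at 51.9 CPM (37.4) and Hrg at 1262 CPM (858), and lowest for Tmem278 at 1.10 CPM (2.25) and Upk1b at 0.196 CPM (0.801). Library 2 was highest for Adgre1 at 12.3 CPM (7.47) and Ltbp3 at 3.27 CPM (2.14) and lowest for Tmem25 at 31.7 CPM (37.0). Library 3 was highest for Zkscan3 at 59.6 CPM (47.3) and for the mitochondrial share of counts at 8.10% (3.52%), and lowest for Polq at 1.45 CPM (1.88). Library 4, the least deeply sequenced, was lowest for Des at 2.67 CPM (4.70), Plau at 1.20 CPM (3.85) and Il1rn at 2.67 CPM (7.23). Leaving out the library concerned kept the call of each of these genes that had passed except Polq without library 3 (adjusted p = 0.0707), Il1rn without library 4 (0.0906) and Upk1b without library 1 (0.0545).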

How the results depend on the processing

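CCl4 + siHAS2-LNP against CCl4 gave 2038 calls, 1322 by limma-voom, 1308 with only the CCl4-treated groups in the fit, 1058 when a 2-fold change was also required and 108 to 1916 with one library left out. CCl4 + siLuc-LNP against CCl4 gave 35 calls, and 277 by DESeq2, 175 by limma-voom, 427 without a low-count filter, 20 when a 2-fold change was also required, 1 with only the compared groups, 2 with only the CCl4-treated groups and 7 to 1062 with one library left out, 7 without CCl4 + siLuc-LNP library 3 and 195 without CCl4 library 1. CCl4 + siHAS2-LNP against CCl4 + siLuc-LNP gave 154 calls, and 412, 12, 656, 68, 0 (with 1844 at an unadjusted p under 0.05) and 2 in the same order and 4 to 230 with one library left out. For CCl4 + siHAS2-LNP against CCl4 DESeq2 gave 2515 calls. The replicate block gave 1822, 17 and 12 calls in the 3 comparisons. Libraries with the same number did not deviate together (correlations 0.0513 and 0.0732 for CCl4 + siHAS2-LNP and CCl4, and -0.312 to -0.000960 in the other comparisons), so the numbers were not taken to pair libraries. Of the 150 genes named, 133 passed against CCl4 and 28 did under every alternative. None of the 133 turned direction in any alternative run. Of the rest, Ccr1, Slc40a1 and Tcstv4 turned direction without CCl4 library 2, to 0.55, -0.037 and 0.64 on the log2 scale, beside -1.11, 0.60 and -0.93 without CCl4 library 1. Without CCl4 library 2 all of the 133 genes except those 28 lost the threshold, and without CCl4 library 1 11 did. The cause of these changes was not tested. Genes at a few counts, Has1, Has2 and Has3 among them, were limited by depth.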
